A study of Papio anubis and Macaca mulatta with 6 samples.

Results

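The immediate-early transcription factor genes EGR1, EGR2, EGR3, NR4A1, NR4A2, NR4A3, FOS, FOSB, JUN and JUNB were followed by symbol through single testis cells of baboon and rhesus monkey. All 10 are listed once in each species, among 34178 baboon and 21356 rhesus genes. Each species was studied in 2 prepubertal animals, for which no treatment is stated and which were euthanized for other reasons. Their testes were recovered at necropsy and dissociated with collagenase and then trypsin. Baboon 1 gave libraries 1A and 1B, rhesus 2 gave 2A and 2B, and baboon 2 and rhesus 1 gave 1 library each. The sources disagree on which species had which ages (one has a newborn baboon, the other a newborn rhesus monkey), so no age is tied to an animal. In either source the 2 animals of a species differ in age, so animal and age cannot be told apart. Baboon 2 was processed with the v3 and the other 5 libraries with the v2 droplet chemistry of 10x Genomics, which reads the 3′ end of transcripts. Animal, age, chemistry and depth therefore cannot be told apart in the baboon. All libraries came from dissociated cells, so levels before and after dissociation cannot be told apart.

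Immediate-early genes are transcribed within minutes of a stimulus such as a growth factor or stress, from factors already present in the cell, and their transcripts are short-lived. EGR1, EGR2 and EGR3 encode zinc finger factors, and NR4A1, NR4A2 and NR4A3 encode orphan nuclear receptors, of which NR4A1 is known in Leydig cells as an activator of steroidogenic genes. FOS, FOSB, JUN and JUNB encode subunits of the AP-1 dimer. Serum response factor (SRF) acts on such genes at CArG boxes and CREB at cyclic AMP response elements.

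To show the regulatory sequence that these genes share, the 250 bases before the annotated start were read from the rhesus genome (Mmul_10, RefSeq annotation) for 4 members. A start was the first base of a curated transcript for EGR1 and EGR2 and of the gene for NR4A1 and FOSB. The regions are chr6:135873832-135874081 (plus strand, upstream of EGR1), chr9:75153879-75154128 (plus, EGR2), chr11:51641976-51642225 (plus, NR4A1) and chr19:45527435-45527684 (plus, FOSB), given 5′ to 3′. Capitals mark CArG boxes and the core of the cyclic AMP response element, TGACG, on either strand.
EGR1: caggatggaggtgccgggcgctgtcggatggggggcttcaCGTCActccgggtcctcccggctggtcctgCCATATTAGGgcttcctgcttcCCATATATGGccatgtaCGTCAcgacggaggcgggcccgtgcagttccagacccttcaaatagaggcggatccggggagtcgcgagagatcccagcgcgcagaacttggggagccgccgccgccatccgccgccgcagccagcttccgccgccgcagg
EGR2: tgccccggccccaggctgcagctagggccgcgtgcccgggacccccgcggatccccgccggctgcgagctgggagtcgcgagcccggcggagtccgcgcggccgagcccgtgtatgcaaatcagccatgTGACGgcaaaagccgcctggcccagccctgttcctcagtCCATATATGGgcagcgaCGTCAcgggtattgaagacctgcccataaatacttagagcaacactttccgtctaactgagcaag
NR4A1: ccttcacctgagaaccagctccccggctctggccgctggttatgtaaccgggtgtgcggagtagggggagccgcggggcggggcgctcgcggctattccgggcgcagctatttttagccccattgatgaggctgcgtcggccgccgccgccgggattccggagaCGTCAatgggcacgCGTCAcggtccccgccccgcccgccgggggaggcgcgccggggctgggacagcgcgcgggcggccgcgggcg
FOSB: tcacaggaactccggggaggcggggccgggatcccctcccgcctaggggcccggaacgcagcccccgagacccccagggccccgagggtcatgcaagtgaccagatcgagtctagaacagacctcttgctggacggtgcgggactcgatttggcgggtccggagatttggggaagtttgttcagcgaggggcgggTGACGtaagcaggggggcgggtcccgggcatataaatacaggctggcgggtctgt

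EGR1 held 2 CArG boxes, at positions -180 to -171 and -158 to -149 from its start, and EGR2 and EGR3 held 1 each. The other 7 members held no CArG box in this window, and 1.025% of the 20787 promoters read in the same way did. TGACG was found on 1 strand or the other in all 10 members and in 20.4% of all promoters. The full palindrome TGACGTCA, which contains TGACG, and the AP-1 element TGACTCA were in none of the 10, against 1.60% and 3.06% of all promoters. TATAAA was found in FOS, FOSB and JUNB, against 9.87% of all promoters. It lay at -25 to -20 in FOSB and -23 to -18 in JUNB, but at -188 to -183 in FOS. The FOS window thus ends close upstream of its TATAAA, and CArG boxes further upstream were not looked for. The genes themselves lie at chr6:135874082-135877338 (EGR1), chr9:75154129-75158502 (EGR2), chr11:51642226-51666836 (NR4A1), chr7:137394931-137397381 (FOS), chr19:45527685-45534869 (FOSB), chr1:165651412-165653728 (JUN) and chr19:12369848-12371689 (JUNB) in Mmul_10. In the baboon assembly Panubis1.0, EGR1 lies at chr5:131162778-131166612, FOS at chr7:31393921-31397718 and JUN at chr1:57175826-57179100.

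After cell calling, 23057 baboon and 26479 rhesus cells remained, with 5569 to 11168 cells and median counts of 1445 to 2743 UMIs (unique molecular identifiers, each a captured transcript) per library. Pairs of libraries shared at most 1.65% of the cell barcodes of the smaller one. Cells were clustered without the 10 genes and without the lists of related genes described later, and clusters were named from fixed marker lists. Sertoli-like cells, the supporting cells of the seminiferous cord, were 17109 of the baboon cells (74.2%) and 8182 of the rhesus cells (30.9%). Of them, 91.3% to 99.5% held a UMI of the Sertoli hormone AMH in the baboon clusters with over 100 cells at the fixed depth, and 97.0% and 98.6% in the 2 rhesus clusters. AMH was also met in 33.2% of baboon and 21.2% of rhesus stroma-like cells. Shares below are of cells thinned to 1000 UMIs, which left 15492 baboon and 7036 rhesus Sertoli-like cells. CPM values are the summed UMIs of a gene as a part of all UMIs of the same cells, on the usual CPM scale, and none is scaled by transcript length. The 10 genes were chosen by name with measured values of these data in view. Which values these were is not recorded, so all levels of the 10 genes and their joint detection are taken as used in the choice and are given without tests.

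The 10 genes together made up the largest share of the UMIs in stroma-like and pericyte-like cells of the baboon and in pericyte-like, stroma-like and peritubular myoid-like cells of the rhesus monkey. In all 4 animals their smallest share was in germ-like cells. In baboon 1 and baboon 2 their summed level was 11052 and 33892 CPM in stroma-like cells and 9508 and 24658 CPM in pericyte-like cells. Macrophage-like cells followed with 6791 and 13381 CPM, endothelial-like cells with 5978 and 13731 CPM, Sertoli-like cells with 5643 and 15807 CPM, and germ-like cells came last with 913 and 5383 CPM. The 3 classes in the middle changed places between the 2 baboons, so their order does not stand beyond the spread of the animals, and every class was higher in baboon 2 than in baboon 1.

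In rhesus 1 and rhesus 2, the summed level was 16055 and 10581 CPM in pericyte-like, 15238 and 9330 CPM in stroma-like and 13527 and 10213 CPM in peritubular myoid-like cells. It was 7369 and 4550 CPM in macrophage-like, 6510 and 3024 CPM in endothelial-like and 3998 and 3017 CPM in Leydig-like cells. Sertoli-like cells had 3532 and 4635 CPM, the only rhesus class with a name in which rhesus 2 was above rhesus 1, and germ-like cells had 829 and 392 CPM. The stroma-like, pericyte-like and myoid-like values overlapped between classes, as did the Sertoli-like and Leydig-like values. No class is known to lack these genes, so germ-like cells, the lowest class, serve as the background. Baboon Sertoli-like cluster 3, described below, lay lower still in 1A and 1B. At 1000 UMIs, 36.6% to 63.0% of baboon and 35.3% to 40% of rhesus germ-like cells held a UMI of at least 1 member, at median depths of 4797 to 7360.5 and 1032.5 to 2524.5 UMIs.

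Free RNA carried these transcripts as well. In the droplets without cells, the 10 genes made up 4232, 4214 and 15443 CPM in libraries 1A, 1B and baboon 2, and 2993, 2955 and 3781 CPM in rhesus 1, 2A and 2B. Germ-like cells lay below the free RNA of their library in all 6, at 782, 1159 and 5383 CPM and at 829, 339 and 463 CPM. By the levels given above, macrophage-like and endothelial-like cells of baboon 2 lay below its free RNA as well, and its Sertoli-like cells were close to it. The endothelial-like and Leydig-like levels of rhesus 2 lay between the free RNA of 2A and 2B. NR4A1 and FOSB of baboon 2 were higher in free RNA, at 578 and 1007 CPM, than in the cells of that library, at 413 and 490 CPM. FOSB of 1A was too, at 269 against 214 CPM. So were EGR3 of rhesus 1 and NR4A3 of 2A and 2B, with 1 UMI each in free RNA.

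**Figure D1:**
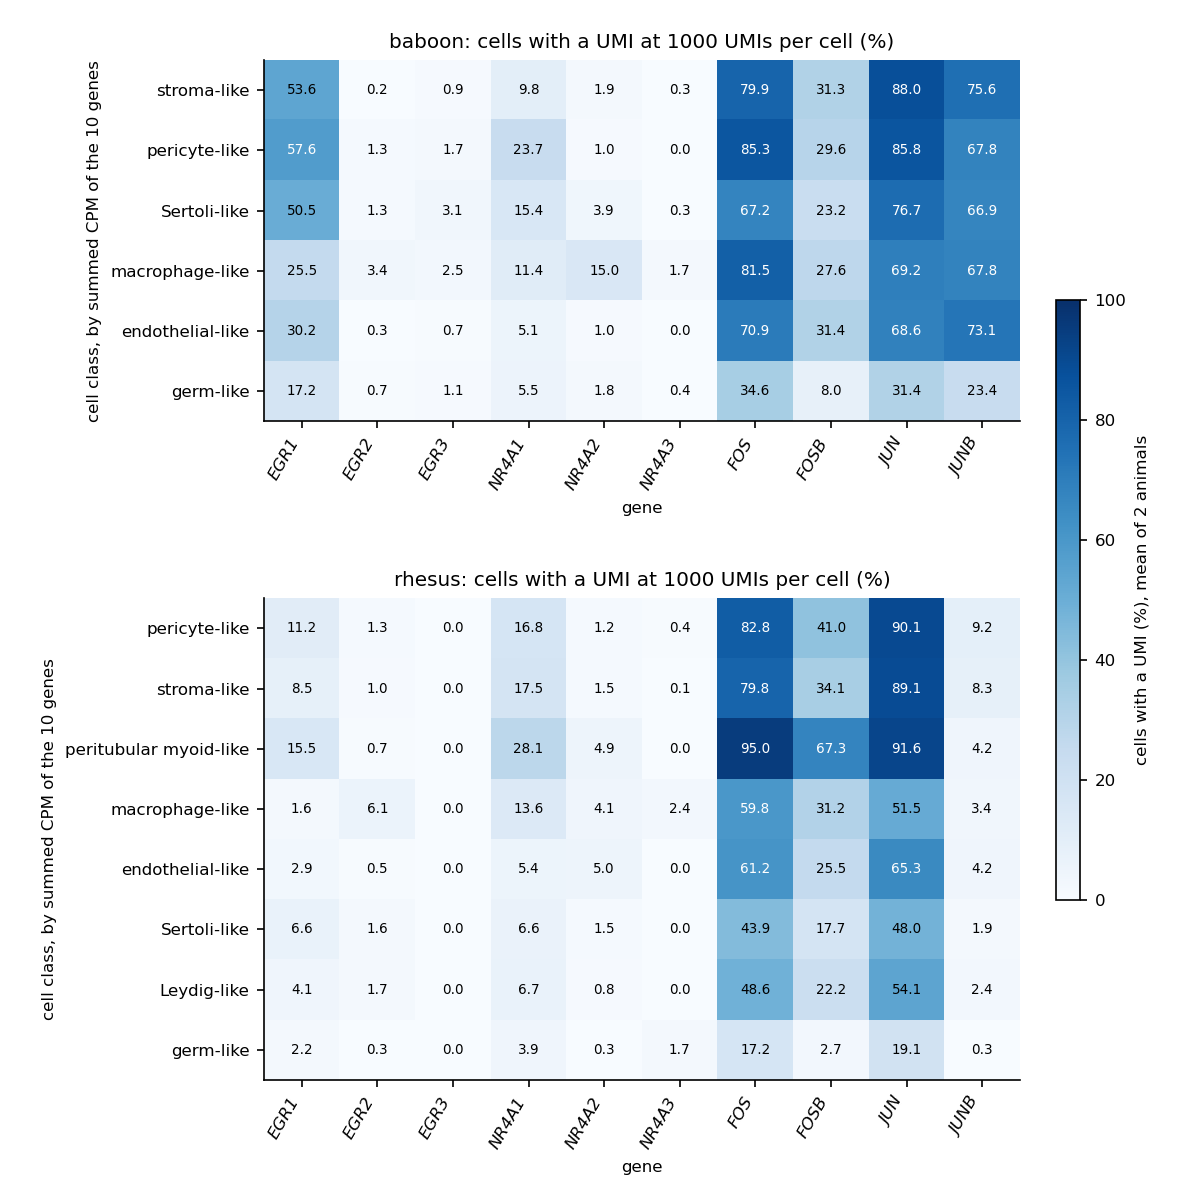
Share of cells (%) with a UMI of each gene (columns) at 1000 UMIs per cell in each cell class (rows, ordered by the summed CPM of the 10 genes), as the mean of the 2 animals, for baboon (top) and rhesus monkey (bottom). FOS and JUN were found in most cells of the stroma-like and pericyte-like rows and in the fewest cells of the germ-like row, and EGR2, EGR3, NR4A2 and NR4A3 stayed at or under 15.0% in every class.

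Among the EGR genes, EGR1 was the one found widely in the baboon. It was met in 29.3% of the Sertoli-like cells of library 1A, 26.2% of 1B and 72.8% of baboon 2 (43.2%, 37.8% and 89.6% before thinning). The stroma-like shares were 33.9%, 34.7% and 73.1%, above the Sertoli-like ones in 1A and 1B and close to them in baboon 2. The germ-like shares were 6.67%, 9.76% and 26.8%. Rhesus EGR1 was met in 3.21% of the Sertoli-like cells of rhesus 1, 10.3% of 2A and 9.89% of 2B. Thus the 2 libraries of rhesus 2 lay together and above rhesus 1, the reverse of stroma-like cells, where the shares were 9.97% in rhesus 1 and 7.63% and 6.37% in rhesus 2.

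EGR2, which is known from hindbrain and peripheral nerve development, was scarce. Its share of Sertoli-like cells was 0.653%, 0.727% and 1.99% in 1A, 1B and baboon 2, and 1.25%, 1.89% and 2.20% in rhesus 1, 2A and 2B. The highest mean shares of EGR2 were in macrophage-like cells of both species, at 6.78% of 59 cells in baboon 2 but 0 of 18 and 0 of 16 cells in 1A and 1B (which allows up to 18.5% and 20.6%), and at 8.24%, 3.57% and 4.55% in the 3 rhesus libraries. Genes that stood out in the baboon macrophage-like cluster included CD69, CCL5 and CST7 beside C1QA, C1QB and C1QC. Whether this cluster also holds lymphocytes was not tested. EGR3, a close relative of EGR1, was met in 0.680%, 0.774% and 5.57% of baboon Sertoli-like cells, and baboon 2 was the library that stood apart. Rhesus EGR3 had 2 UMIs in all 26479 cells and none after thinning, which allows a share of up to 0.0170% of cells (95% Clopper-Pearson limit, counting error only). EGR1, EGR3 and JUNB were much lower in the rhesus tables than in the baboon tables, and since the gene models of the 2 species differ, the species were not compared.

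NR4A1 differed between the animals of each species. It was met in 2.64% and 2.42% of Sertoli-like cells in 1A and 1B and in 28.3% in baboon 2, and at 33.0, 31.4 and 451 CPM. The free RNA of baboon 2 held it at 578 CPM, above these Sertoli-like cells, and the part of free RNA in their share was not tested. Of the rhesus libraries, the single one of rhesus 1 was the higher one, with 10.1% of Sertoli-like cells against 2.64% and 3.75% in 2A and 2B. Germ-like cells, the background, held it in 4.10% of 317 cells in rhesus 1. In 2A and 2B it was met in 1 germ-like cell each, of 28 and 25 (3.57% and 4%). The whole-class Sertoli-like shares of 2A and 2B were not above these and cannot be told from a background that rests on 1 cell each. Sertoli-like cluster 1, described below, held NR4A1 in 0.905% and 0.814% of cells in 2A and 2B. Cluster 2 held it in 3.70% and 5.45%. Rhesus 1 was also the highest in stroma-like cells, with 31.0% against 3.84% and 4.39%. Peritubular myoid-like cells held NR4A1 in 33.3%, 21.1% and 25.0% of only 18, 38 and 32 cells. Leydig-like cells, which the rhesus clusters resolved and the baboon clusters did not, held NR4A1 in 8.29%, 5.62% and 4.71%, near the Sertoli-like shares.

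NR4A2, known for its part in dopaminergic neurons, was met in 0.952%, 0.610% and 6.94% of baboon and in 2.08%, 1.03% and 0.953% of rhesus Sertoli-like cells. Its highest share was that of macrophage-like cells in baboon 2, at 27.1% of 59 cells, with 1 of 16 cells in 1B and 0 of 18 in 1A. NR4A3 was the scarcest of the baboon genes, with 0.0136%, 0.0235% and 0.671% of Sertoli-like cells in 1A, 1B and baboon 2. Rhesus NR4A3 was met in 0.0830% of the Sertoli-like cells of rhesus 1 and in 0 of the 1743 and 1679 cells of 2A and 2B, which allows up to 0.211% and 0.219%. Macrophage-like cells again had the highest mean share, with 3.39% in baboon 2 and 4.71% in rhesus 1, and 0 of 16 to 28 cells in each of the other 4 libraries (upper limits of 12.3% to 20.6%).

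FOS and JUN, 2 of the AP-1 genes, were met in more Sertoli-like cells than EGR1 and the NR4A genes in both species. FOS was found in 46.2%, 42.1% and 89.8% of Sertoli-like cells in 1A, 1B and baboon 2, and in 33.5%, 54.2% and 54.6% in rhesus 1, 2A and 2B. In stroma-like cells FOS reached 65.3%, 63.5% and 95.2% in the baboon and 82.9%, 75.7% and 77.8% in the rhesus monkey, above the Sertoli-like share in all 6 libraries. In germ-like cells it was met in 21.1%, 22.0% and 47.8%, and in 19.2%, 14.3% and 16.0%.

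JUN, a partner with which FOS binds DNA, was met in 64.9%, 60.1% and 90.2% of baboon and in 31.9%, 64.0% and 64.3% of rhesus Sertoli-like cells. Stroma-like cells were again above them in each library, at 80.5%, 77.0% and 96.8% and at 88.3%, 89.9% and 89.9%. JUNB was met in 47.6%, 43.0% and 87.9% of baboon Sertoli-like cells but in 1.52%, 2.24% and 2.32% of the rhesus ones. FOSB, a relative of FOS that pairs with the same partners, was met in 15.6%, 13% and 31.8% of baboon and 13.9%, 21.5% and 21.4% of rhesus Sertoli-like cells. In 1A and baboon 2 its level in free RNA was above that of the library's cells, as given above. Averaged over the 2 animals, at least 1 of the 10 genes was met in 85.8% ± 17.9 (SD, n = 2) of baboon Sertoli-like cells and 60.5% ± 15.9 (SD, n = 2) of rhesus ones, and in 93.2% ± 8.49 and 93.2% ± 0.906 (SD, n = 2) of stroma-like cells.

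**Figure D2:**
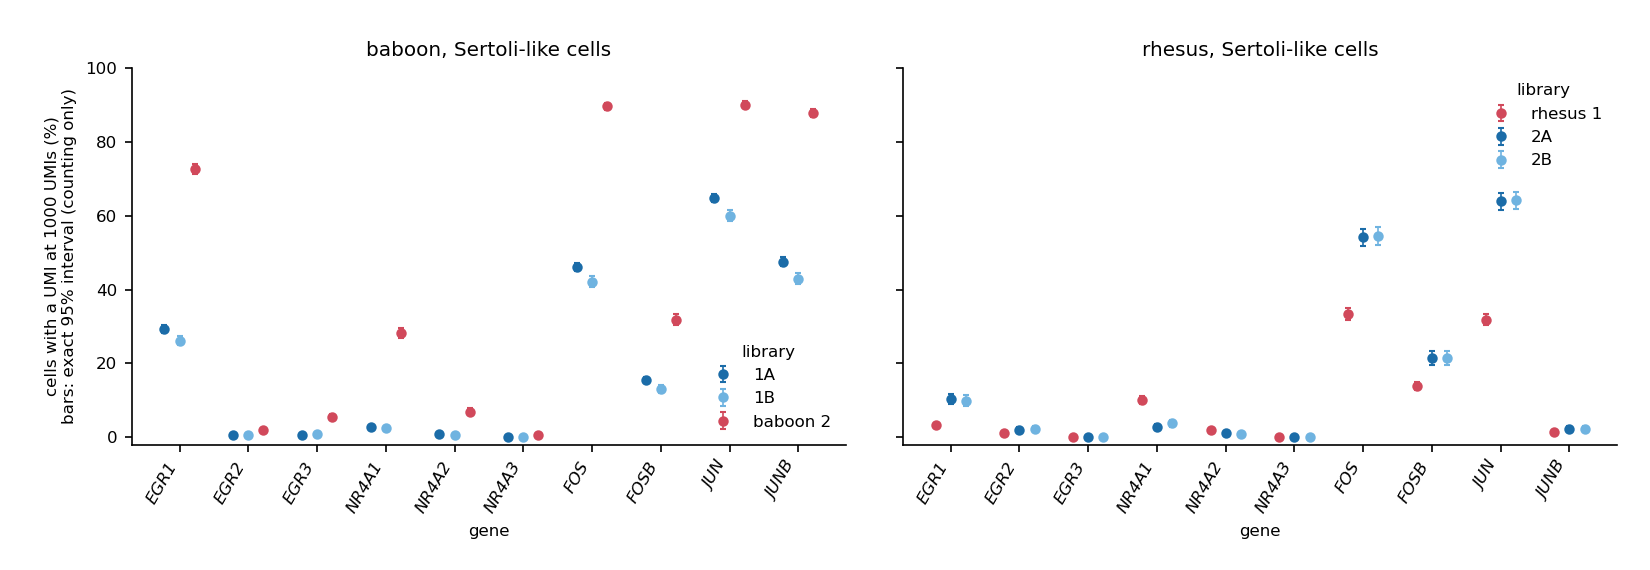
Share of Sertoli-like cells (%) with a UMI of each gene at 1000 UMIs per cell, with 1 point per library and its 95% Clopper-Pearson interval, which covers counting error only. Libraries of the same animal lie together, baboon 2 lies above 1A and 1B for all 10 genes, and rhesus 1 lies below 2A and 2B for EGR1, EGR2, FOS, FOSB, JUN and JUNB and above them for NR4A1, NR4A2 and NR4A3. For EGR2, FOSB and JUNB the order is the reverse within each rhesus Sertoli-like cluster described below.

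Within the Sertoli-like class, the genes were low in 1 large cluster of each species. In baboon cluster 3, the 10 genes summed to 405 and 329 CPM in 1A and 1B, and 76.4% and 79.6% of the cells had no UMI of any member. These levels lay below the germ-like cells (782 and 1159 CPM) and the free RNA (4232 and 4214 CPM) of the same libraries. The part of free RNA in them was not tested. Cluster 3 also held 188 cells of baboon 2, with 11704 CPM and 4.27% of cells without a member. The other baboon clusters with over 200 cells ranged from 4300 to 9064 CPM in 1A and 1B and from 14475 to 21272 CPM in baboon 2. The small cluster 11, of 147 cells, had 1810, 1314 and 10274 CPM. JUN was met in 11.6% and 11.3% of cluster 3 cells in 1A and 1B, against 58.1% to 91.4% in clusters 0, 1, 2, 6 and 7 of the same libraries.

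Rhesus cluster 1 had 1042, 1111 and 992 CPM in rhesus 1, 2A and 2B, and cluster 2 had 6455, 6673 and 6745 CPM. Cluster 1 lay below the free RNA of each library (2993, 2955 and 3781 CPM) and above its germ-like cells (829, 339 and 463 CPM). The part of free RNA in cluster 1 was not tested. The 2 clusters did not overlap in any library. In cluster 1, 63.7% to 68.1% of the cells had no member, against 5.83% to 15.4% in cluster 2. Rhesus 1 had 2568 cluster 1 cells against 1046 of cluster 2 at the fixed depth, while 2A and 2B had 663 and 614 against 1080 and 1065, so the whole-class shares of rhesus 1 hold more cells of cluster 1. Within cluster 2, JUN was met in 64.6% of the cells in rhesus 1 and in 86.8% and 86.7% in 2A and 2B. NR4A1 went the other way there, with 28.4% in rhesus 1 against 3.70% and 5.45% in 2A and 2B. FOSB (37.0% against 32.3% and 31.8%), EGR2 and JUNB were higher in rhesus 1 there too, unlike in the whole class. EGR1 and FOS stayed lower in rhesus 1. Within cluster 1, EGR2, FOSB, JUNB and also FOS (18.6% against 16.1% and 13.5%) were higher in rhesus 1.

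Other measures of the cells moved with this split. Baboon cluster 3 had a median of 522 genes per cell at 1000 UMIs, with 35.5% of its UMIs from ribosomal protein genes, against 618.5 to 658 genes and 18.2% to 24.2% in the other Sertoli-like clusters. Its cells of baboon 2, which had the members, were at 643.5 genes and 22.7%. The other Sertoli-like clusters of that library were at 626.5 to 668 genes and 11.9% to 20.3%. The ribosomal protein share of cluster 3 was thus the highest in baboon 2 as well. Rhesus cluster 1 had 521 genes and 28.4%, and cluster 2 had 685 genes and 16.7%. Sertoli markers moved with the split as well. In baboon cluster 3, SOX9 was met in 17.0% of the cells, ERBB3 in 2.48% and INHBB in 5.29%, against 23.5% to 31.5%, 10.2% to 15.7% and 15.4% to 20.3% in clusters 0, 1, 2, 6 and 7. Its AMH, DHH, WT1 and FSHR shares were also below those of these 5 clusters, FATE1 was above them at 8.47%, CST9L lay within their range, and CITED1 was at or near 0 in all. The 10 markers summed to 4301 CPM there against 7788 to 9869 CPM. These values pool the libraries, and 164 of the 2988 cluster 3 cells were of baboon 2. Among these 164 cells, ERBB3 was at 8.54%, above the same 5 clusters in that library (6.11% to 7.61%). SOX9, AMH, DHH and the marker sum (6744 CPM) lay within the ranges of those clusters. INHBB, WT1 and FSHR stayed below them, and FATE1 above. In rhesus cluster 1 and cluster 2, SOX9 was met in 19.4% and 52.1% of the cells and INHBB in 2.94% and 14.0%. The markers summed to 7829 and 10338 CPM. With the libraries pooled, FATE1 and ERBB3 were the 2 markers that were higher in cluster 1. Taken by library, CST9L was higher there too in 2A (41.3% against 32.2%) and 2B (41.2% against 35.2%). In rhesus 1 it was near 0 in both clusters (0.234% and 0.0956%), which gives no direction. CITED1 was higher in cluster 1 in 2A and 2B but not in rhesus 1. The part of these measures in the members' levels was not tested.

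**Figure D3:**
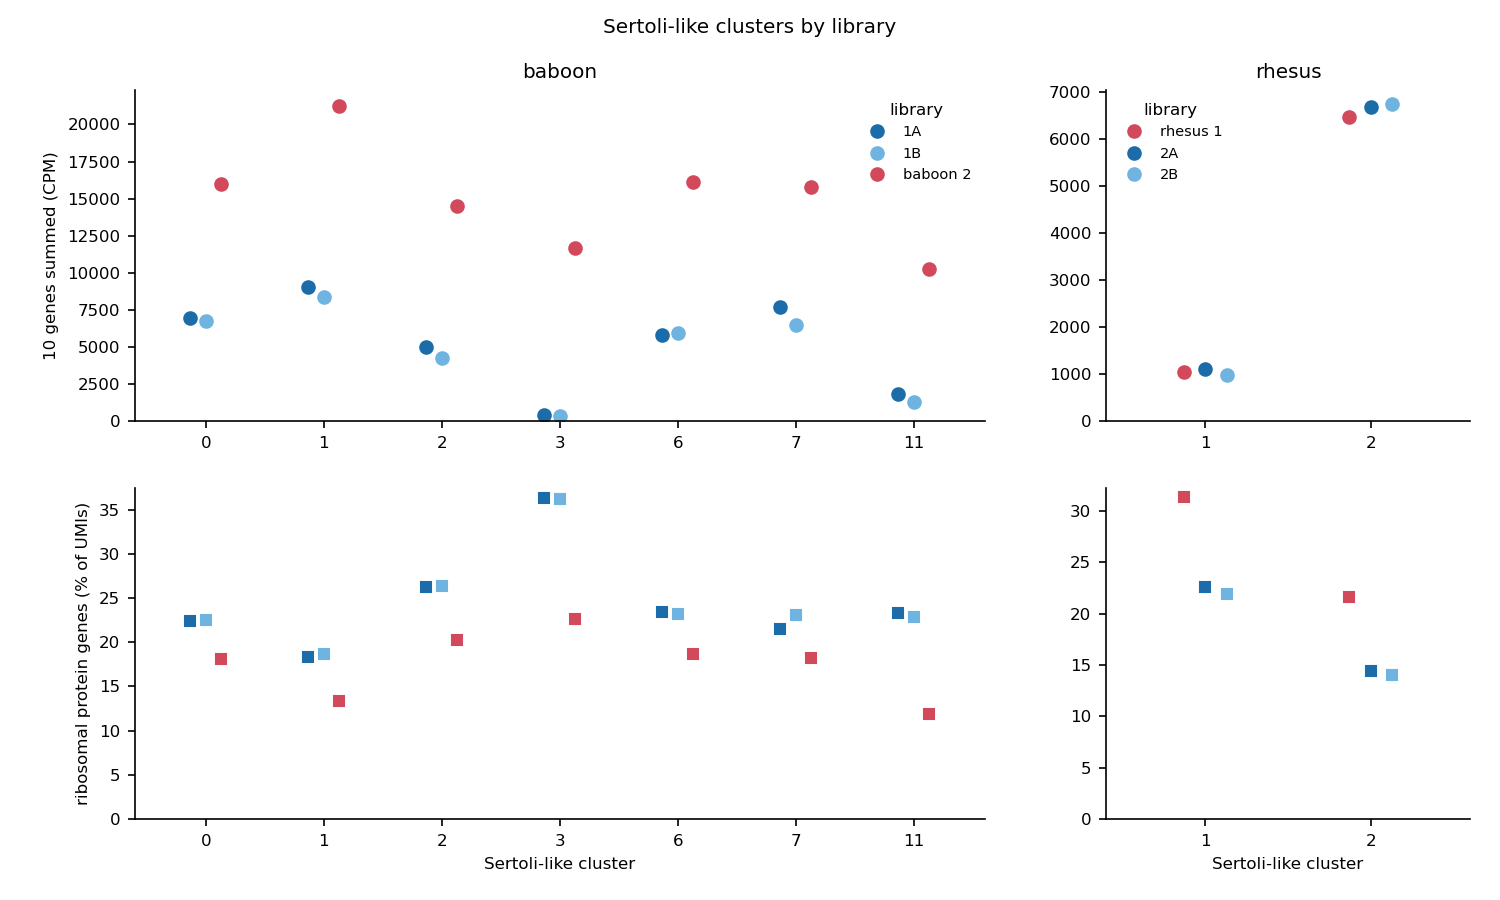
Summed CPM of the 10 genes (top) and share of UMIs from ribosomal protein genes (%, bottom) in each Sertoli-like cluster, with 1 point per library, for baboon (left) and rhesus monkey (right). Baboon cluster 3 has the highest ribosomal protein share in all 3 libraries, and the lowest CPM in 1A and 1B but not in baboon 2. Rhesus cluster 1 lies below cluster 2 in CPM in all 3 libraries.

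The members were met together in single Sertoli-like cells more often than their separate shares gave. At least 3 of the 10 genes were met in 43.2%, 38.3% and 89.4% of the cells of 1A, 1B and baboon 2, and in 14.9%, 25.8% and 26.6% of rhesus 1, 2A and 2B. The mean over animals was 65.4% for baboons and 20.5% for rhesus monkeys. For comparison, the product of the genes' shares within each library gave 47.3% of all baboon cells, where 53.4% were counted, and 9.42% of all rhesus cells, where 20.4% were counted.

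Cells without any member were in excess as well. They were 20.5% of baboon Sertoli-like cells, against 4.89% by the product, and 39.8% of rhesus ones, against 21.8%. When the product was taken within each library and cluster, it gave 15.4% and 33.9% for cells without a member and 53.9% and 17.1% for cells with at least 3. Most of the gap therefore lay between clusters in both species. The baboon share of cells with at least 3 members no longer exceeded the product, while the rhesus share still did, at 20.4% against 17.1%. In baboon 2 alone, 89.4% of cells had at least 3 members against 95.3% by the product, and 1.5% had none against 0.0138%.

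**Figure D4:**
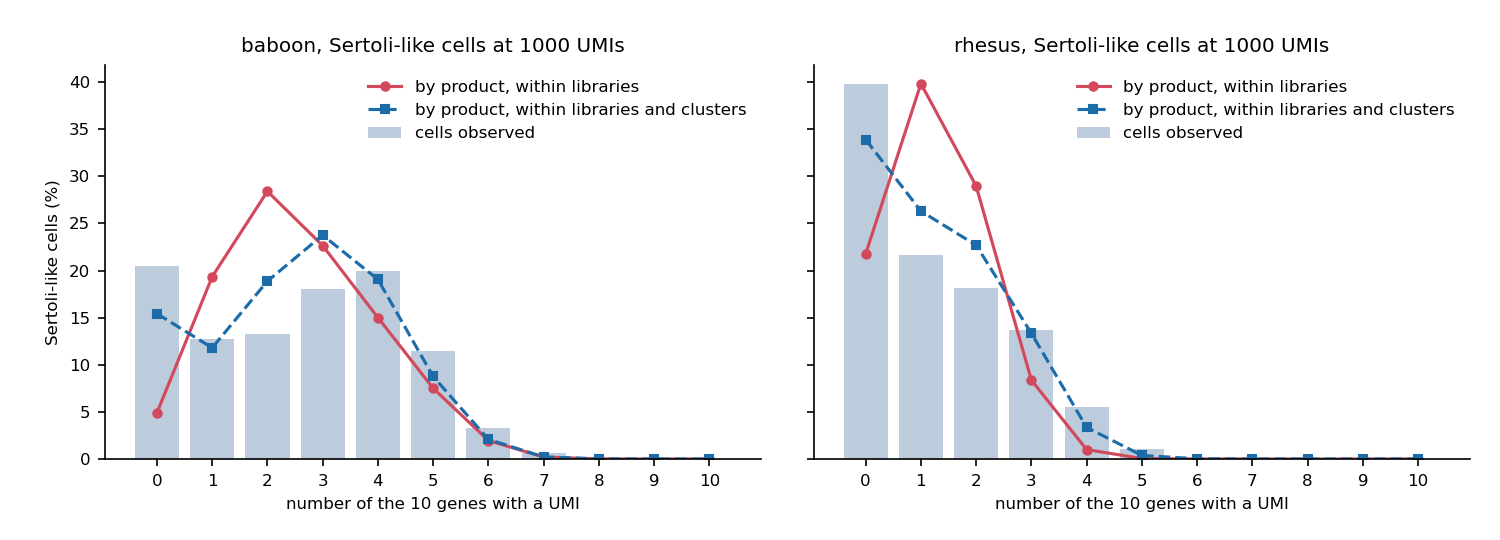
Share of Sertoli-like cells (%) by the number of the 10 genes met per cell at 1000 UMIs, as counted and as given by the product of the genes' shares within libraries and within libraries and clusters, for baboon and rhesus monkey. Cells with 0 members are 20.5% and 39.8% as counted, above both products in both species.

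Of the 45 pairs of members in the baboon, 43 were met in the same cell more often than the product gave, with a median ratio of 1.25 over all libraries (1.56 in 1A, 1.68 in 1B and 1.09 in baboon 2). Within clusters the median was 1.14. The median taken in each animal and averaged was 1.36. FOS and JUN, the pair met together in the most cells, had a ratio of 1.22 for the baboon and 1.49 for the rhesus monkey, falling to 1.08 and 1.14 within clusters. FOSB with the scarcer genes had some of the higher ratios, such as 1.45 with EGR3 (baboon) and 2.99 with NR4A2 (rhesus) (1.35 and 1.47 within clusters). The rhesus median ratio was 2.10 (2.62, 1.63 and 1.68 in rhesus 1, 2A and 2B), 1.27 within clusters and 2.15 as the mean over animals. There, 31 of the 45 pairs lay above 1, and the 9 pairs of EGR3 had no cells. Pairs of a member with a Sertoli marker gene, by the same products within libraries, had a median ratio of 1.10 over 77 baboon pairs and 1.02 over 69 rhesus pairs. Only pairs with at least 10 cells by the product were taken here, a limit not set for the 45 member pairs. Pairs with AMH, which nearly all of these cells held, cannot lie far above 1 (0.999 to 1.018 in the baboon, 1.003 to 1.016 in the rhesus monkey).

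The sets of Sertoli-like cells with at least 3 members and with none differed in the same measures as the clusters, and mostly lay in different clusters. Of the baboon cells, 8134 of 8278 with at least 3 members lay outside cluster 3, against 976 of 3176 with none. Of the rhesus cells, 1345 of 1435 with at least 3 members lay in cluster 2, against 288 of 2801 with none. In the baboon, cells with none had a median of 537 genes and 33.0% ribosomal protein UMIs, and cells with at least 3 had 648 genes and 19.8%. The rhesus values were 525 genes and 27.8% against 685 genes and 16.7%. The 58 cells of baboon 2 without a member had 659.5 genes and 18.4%, close to the cells with members. Cells marked as doublets were 2.74% and 6.56% of the baboon sets and 2.32% and 14.4% of the rhesus sets, without and with at least 3 members. The 10 Sertoli markers summed to 9140 and 4945 CPM in baboon cells with at least 3 members and with none, and INHBB was met in 18.4% and 7.21% and ERBB3 in 11.7% and 5.23%, but the 58 cells of baboon 2 without a member had 9810 CPM. In rhesus cells the sums were 10645 and 8081 CPM, SOX9 was met in 53.4% and 22.5%, DHH in 16.5% and 6.07% and INHBB in 14.4% and 3.89%. With the libraries pooled, FATE1 in both species and ERBB3 in the rhesus monkey were higher in cells without a member. By library this held for FATE1 in each rhesus library, 1A and 1B, but not in baboon 2 (10.1% with at least 3 members and 6.90% with none). It held for ERBB3 in 2A and 2B but not in rhesus 1 (13.5% and 12.3%). CST9L was higher in cells without a member in 2A and 2B. In rhesus 1 it was near 0 in both sets (0.327% without a member and 0% with at least 3). The part of these values in the joint detection was not tested.

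To see which other genes go with joint detection, UMIs of cells with at least 3 members were summed per animal and compared with those of cells with none, after the 10 genes were taken out. The 3 lists of related genes were chosen with earlier results of these data known. Their counts and medians beside those of all genes are therefore a description. Among 24 other early-response genes tested in the baboon, 7 were higher in cells with at least 3 members and none was lower, against 0.226% of all 11057 genes called (25 genes, all higher; edgeR quasi-likelihood test, Benjamini-Hochberg adjusted p under 0.05). They were ATF3, a stress-induced bZIP factor, IER2, KLF4, CCN1, ZFP36, BTG2 and GADD45B. The median log2 fold change of the list was 1.81, against 0.09 over all genes tested.

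In cells of baboon 1 with at least 3 members and with none, ATF3 stood at 71.4 and 3.85 CPM, and in baboon 2 at 174 and 0 CPM (log2 fold change 4.47 ± 0.68 SE, adjusted p = 5.06e-07). CCN1, a matricellular protein, stood at 156 and 22.1 CPM in baboon 1 and at 419 and 17.2 CPM in baboon 2 (3.26 ± 0.65, adjusted p = 0.000625). The set without members in baboon 2 had 58 cells and 58000 UMIs, so that 1 UMI was 17.2 CPM and 3 UMIs were 51.7 CPM. A gene at 0 to 3 UMIs in that set is at or under the floor, and its fold in baboon 2 is not given. ZFP36, which encodes an mRNA decay factor for early-response transcripts, stood at 69.1 and 8.02 CPM in baboon 1 and 139 and 17.2 CPM in baboon 2 (3.07 ± 0.61, adjusted p = 0.000625). With the animal as a block, ATF3, KLF4, CCN1 and ZFP36 passed and IER2, BTG2 and GADD45B did not (adjusted p = 0.0647, 0.147 and 0.0567), and 31 genes (0.280%) were called in all, 0.262% higher and 0.0181% lower. By DESeq2, 3 genes passed in all (ATF3, DUSP1 and NFKBIZ), and without library 1A, 7 genes passed by edgeR. The adjusted p of ATF3 was then much larger, at 0.0155 by DESeq2 and 0.00781 by edgeR without 1A.

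In the rhesus monkey, 6 of 18 early-response genes tested were higher and none lower, against 0.574% of 7659 genes higher (44 genes) and 0.0131% lower (1 gene). At an unadjusted edgeR p under 0.05, 13 of the 18 were higher and none lower, but so many as 2848 of all 7659 genes passed in either direction. The small share of all genes called thus rests on the adjusted threshold. The 2 sets are largely cluster 2 against cluster 1, as counted above. The 6 genes were CCN1, ZFP36, KLF4, BTG2, KLF6 and PPP1R15A, and the list's median log2 fold change was 2.10 against 0.03 over all genes. CCN1 stood at 468 and 22.4 CPM in rhesus 1 and 460 and 30 CPM in rhesus 2, in cells with at least 3 members and with none (log2 fold change 3.55 ± 0.27 SE, edgeR adjusted p = 0.0365). ZFP36 stood at 408 and 24.0 CPM and at 358 and 19.6 CPM (3.46 ± 0.36, edgeR adjusted p = 0.0454). ATF3 stood at 120 and 4.91 CPM and at 85.7 and 1.03 CPM, with an adjusted p of 0.0504 in edgeR.

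The rhesus counts moved with the model and the cells used. With the animal as a block, 14 of the 18 early-response genes passed, all higher, but so did 52.4% of all genes tested (26.9% higher), and with cells of at least 2 members in place of 3 no gene passed by edgeR (2767 genes had an unadjusted p under 0.05). Without library 2A or 2B, 586 and 323 genes passed. Within rhesus cluster 2 alone, an alternative chosen after seeing the data, 1 gene passed in all, CCN1, with an adjusted p of 0.043 in edgeR. In the baboon without cluster 3, also chosen after seeing the data, 19 genes passed, among them 9 early-response genes, of which 6 were among the 7 above, while KLF4 did not pass (edgeR adjusted p = 0.187).

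Of the regulators of this response, DUSP1, a phosphatase that switches off MAP kinases, was the one that passed in both species. It stood at 442 and 36.9 CPM in baboon 1 and 606 and 86.2 CPM in baboon 2 (log2 fold change 3.13 ± 0.71 SE, edgeR adjusted p = 0.00824). In rhesus 1 it stood at 816 and 53.4 CPM and in rhesus 2 at 1248 and 58.9 CPM (3.55 ± 0.33, edgeR adjusted p = 0.0454). The call was lost in the baboon without library 1A (edgeR adjusted p = 0.0511), and in the rhesus monkey with at least 2 members and within cluster 2 (edgeR adjusted p = 0.0769 and 0.0732). The log2 fold change in these fits was 3.12, 3.24 and 3.15. The other 13 baboon and 8 rhesus regulators tested did not pass, among them SRF in the baboon (0.30 ± 0.59) and CREB1 (0.22 ± 0.49 for baboons, 1.36 ± 0.40 for rhesus monkeys), which act upstream. With the animal as a block, DUSP6 passed too in the baboon, and 6 of the 9 regulators were higher and ELK1 lower in the rhesus monkey, where 26.9% of all genes were higher and 25.5% lower.

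None of the 8 baboon and 7 rhesus heat shock and chaperone genes tested passed in edgeR (unadjusted p under 0.05 for 1 baboon and 2 rhesus genes, and 0 and 1 past the adjusted threshold by DESeq2). Over all genes 0.226% and 0.588% were called, so that 0 in a list of this size says little. HSPA8, the constitutive HSP70, had a log2 difference of -0.08 ± 0.71 SE for baboons and -0.34 ± 0.24 for rhesus monkeys, and HSP90AA1 of 0.17 ± 0.80 and 0.23 ± 0.31. DNAJB1, an HSP40 co-chaperone, had the highest values, at 1.49 ± 0.54 and 1.93 ± 0.33, with adjusted p = 0.616 and 0.0504 in edgeR. With the animal as a block, rhesus DNAJB1 was higher and HSPD1 and HSPE1 were lower, 3 of 7 in a fit that called 52.4% of all genes. The lists' median log2 differences were 0.07 (baboon) and -0.34 (rhesus), near or below those of all genes.

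**Figure D5:**
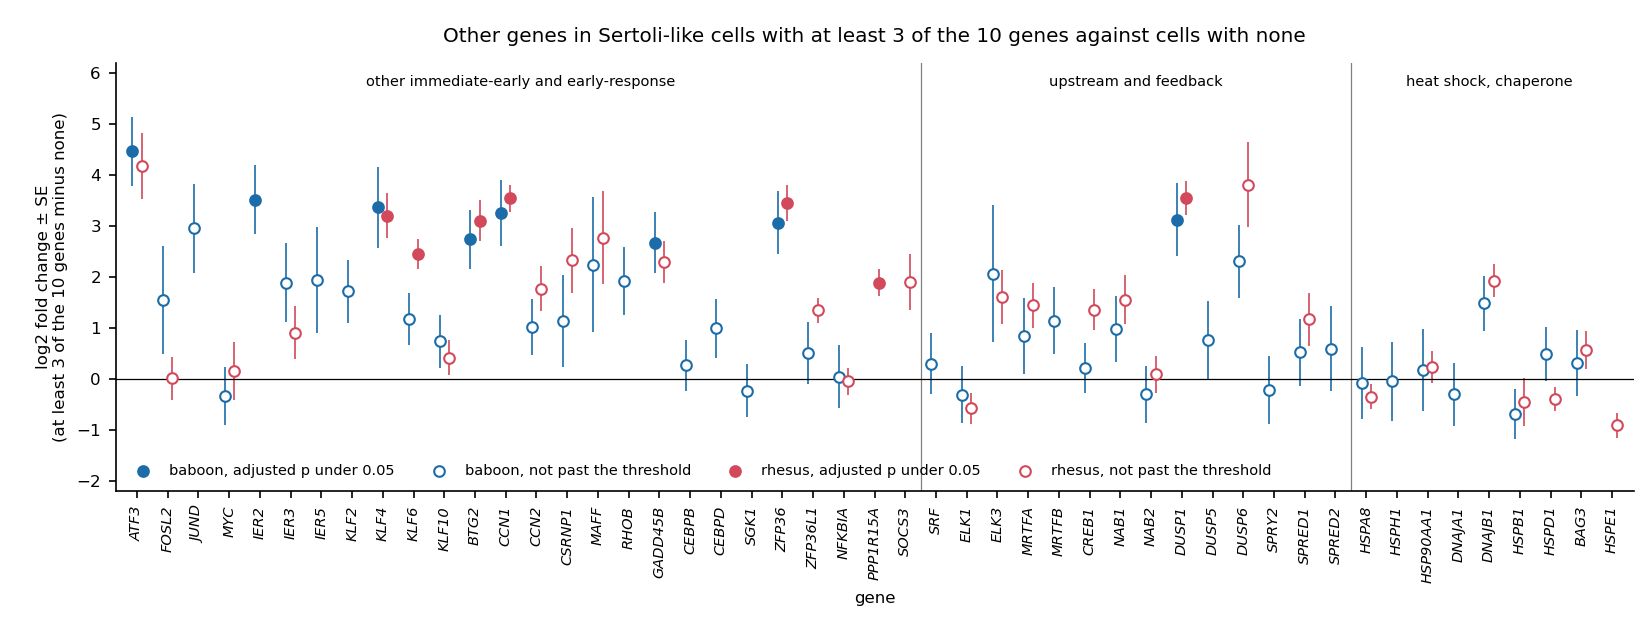
Log2 fold change ± SE (edgeR, 2 animals per species) of genes on the 3 related lists between Sertoli-like cells with at least 3 of the 10 genes and cells with none, for baboon and rhesus monkey. Filled points passed an adjusted p of 0.05. The early-response genes lie mostly above 0, and DUSP1 stands out among the regulators. No heat shock gene has a filled point, and DNAJB1 lies above the others of that list in both species.

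Outside these lists, the 8 genes with the highest fitted fold changes in the baboon included DUSP2, another MAP kinase phosphatase, at 19.3 and 0.321 CPM in baboon 1 and 58.1 and 17.2 CPM in baboon 2 (edgeR adjusted p = 8.46e-05). Its values in cells without a member are 1 UMI in each baboon, under the floor of 3 UMIs, so no fold is given. NFKBIZ, an inducible nuclear IκB protein, stood at 80.5 and 2.57 CPM and at 69.3 and 0 CPM (4.33 ± 0.70, edgeR adjusted p = 4.18e-06). ANKRD42, also under the floor in cells without a member of both baboons (edgeR adjusted p = 0.0159), and 4 genes known only by a LOC number made up the rest, with ATF3. Fitted folds of genes under the floor depend on the prior count, and so does their place among the 8. Rhesus NXPE3 (3.43 ± 0.41, edgeR adjusted p = 0.0454) and 2 genes without a symbol stood among the first 8 of that species, and the 1 gene that was lower had no symbol either.

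Sertoli-like cells were also set against all other cells for these lists. Against all other cells, none of 27 baboon early-response genes was higher by edgeR (1 at an unadjusted p under 0.05 and 1 by DESeq2) and 4 were lower (FOSL2, KLF4, CEBPD and ZFP36L1), where 6.72% of 17299 genes were called higher and 18.1% lower. That background includes the genes that made the clusters. In the rhesus monkey, none of 22 was higher by edgeR (1 at an unadjusted p under 0.05 and 1 by DESeq2) and 5 were lower (MYC, CEBPD, SOCS3, SGK1 and ZFP36), where 9.15% of 12453 genes were called, 4.02% higher and 5.14% lower. CEBPD, a bZIP factor of acute responses, was lower in both species, at 17.7 against 113 CPM and 40.5 against 452 CPM in baboon 1 and 2, and at 2.64 against 19.1 CPM and 2.87 against 11 CPM in rhesus 1 and 2.

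CCN1 went the other way, at 98.1 against 46.7 CPM and 411 against 80.4 CPM in the baboons and 204 against 96.2 CPM and 197 against 68.1 CPM in the rhesus monkeys, without passing (edgeR adjusted p = 0.0976 and 0.0811). With the animal as a block it passed as the only early-response gene that was higher in either species, and 15 baboon and 11 rhesus early-response genes were lower (27.6% and 15.1% of all genes, with 50% and 28.8% called in either direction). Among the regulators, SRF and its ternary complex partner ELK1 were higher in baboon Sertoli-like cells (log2 fold change 1.07 ± 0.28 and 1.08 ± 0.20 SE), and ELK3, DUSP4 and SPRY4 were lower. In the rhesus monkey, ELK3 and SPRY2 were lower and no regulator was higher by edgeR (1 at an unadjusted p under 0.05 and 0 by DESeq2). HSPB1 was lower in both species, by -3.13 ± 0.22 and -2.58 ± 0.38 on the log2 scale, and HSPH1 in the baboon by -1.53 ± 0.30.

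The genes whose summed level was most like that of the 10 members over cell classes and libraries were compared by Pearson's correlation of log2(CPM + 1). In the baboon, over 17 sums and 6962 genes, they were RPS23 (r = 0.988), GNG10 (0.967), PDLIM2 (0.955), AIG1 (0.944) and ZC3H7A (0.925). Over 24 rhesus sums and 5868 genes, they were ATP6AP2 (0.937), GADD45B (0.891), ARL6IP5 (0.889), DDAH2 (0.882) and ZFP36 (0.878). The sums share libraries and chemistry, and in the baboon the single library of baboon 2 was high for all of them, so these values are a description. GADD45B and ZFP36 are on the early-response list, and the baboon genes are not.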

How the data were processed

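Single-cell RNA was measured in 6 libraries from 2 baboons and 2 rhesus monkeys. The deposited tables give UMI counts per gene for every barcode, empty droplets included, which the authors made with Cell Ranger 3.1.0 on Panubis1.0 or Mmul_10, without normalization or cell calling. Libraries held 16875294 to 49803025 UMIs.

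Cells were called with a rebuilt form of the Cell Ranger rule, and doublets were marked and kept. Clusters came from Seurat 5.3.0 in R 4.3.3 (sctransform per library, 3000 features without the 10 genes and the 3 lists, 30 principal components, resolution 0.5). Each cell was thinned to 1000 UMIs for shares. Sums per animal were tested with edgeR 4.0.16 (quasi-likelihood, TMM, filterByExpr, Benjamini-Hochberg), with DESeq2 1.42.0 as an alternative, and the scripts were tested on simulated data. Other steps used Python 3.11.15, numpy 2.4.6, scipy 1.17.1 and pandas 2.3.3.

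Groups are animals, so n = 2 per species. Both sums of a comparison come from the same animal, which pairs them; their deviations from the group means correlated at 0.664 and 0.279 (baboon, class and joint detection comparisons) and 0.594 and 0.641 (rhesus). The 10 genes and the lists were chosen with earlier results of these data known. Named genes are the members, genes of the 3 lists, up to 8 genes per direction with the largest fold change past an adjusted p of 0.05 in the joint detection comparison and the same direction in both animals, and per species the 5 genes (mean of at least 20 CPM) whose log2(CPM + 1) over class-by-library sums correlated best with the members' sum.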

Additional observations from a re-analysis of the deposited data

Results flagged for a closer look

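The rhesus cells of the 2 clusters that no marker list named were described as no class of their own and entered the tests only among all other cells, and the 10 genes were met in them too. Of 241 such cells at 1000 UMIs, 36.5% held a UMI of at least 1 member (95% Clopper-Pearson interval 30.4% to 42.9%, counting error only), with 34.2%, 37.8% and 37.5% in rhesus 1, 2A and 2B. Germ-like cells, the lowest named class, stood at 35.3%, 35.7% and 40%, and the summed level in the unnamed cells was 1078 CPM in rhesus 1 and 950 CPM in rhesus 2, below the free RNA of their libraries. These values stand out because they come from cells that the class descriptions leave out, above the limit that a count of 0 allows.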

How the results depend on the processing

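With the replicate block (the animal as a term), the class comparison called 8643 baboon and 3590 rhesus genes in place of 4296 and 1140, and the joint detection comparison called 4013 rhesus genes in place of 45. The cause was not tested. With libraries as samples the counts were 6624, 4209 and, for rhesus joint detection, 2506. With no filter they were 2170 (rhesus classes) and 2078 (rhesus joint detection), and with DESeq2 2214, 423 and, for the baboon joint detection, 3 in place of 25. With the UMI cutoff alone, baboon 2 gave no sum of cells without a member, so that arm was baboon 1 alone, assumed to vary like the other arm, and 11 genes were called. The baboon count was 7 to 17 without 1 library of baboon 1. The rhesus joint detection count was 0 with at least 2 members, 671 with at least 4, 796 with the list genes among the features, 1093 with marked doublets left out, 1 within cluster 2, and 323 to 586 without 1 library of rhesus 2. Leaving out baboon 2 or rhesus 1 leaves 1 animal, so no test was run. At depths of 2000 and 500 UMIs, the rhesus share with at least 3 members was 44.6% and 9.08% in place of 20.5%, and the stroma-like share with at least 1 member 97.0% and 86.5% (94.9% with the list genes among the features). The rhesus Sertoli-like share with at least 1 member was 80.0% at 2000 UMIs. The other 104 values of the main results moved by less than 1.5 times or the animals' spread. That spread is wide in the baboon, with 65.4% ± 34.0 (SD, n = 2) for cells with at least 3 members. Staying within it therefore says little about the baboon values. Among single genes, 1002 values stayed, 176 passed the threshold newly, 72 no longer passed and 47 moved, and HSPD1 changed direction within rhesus cluster 2, with a log2 difference of 0.19. Depth limits EGR2, EGR3, NR4A2 and NR4A3, which few cells held.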
